A study of Mus musculus with 8 samples.

Results

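Transcripts of 9 genes that make, store, take up or break down catecholamines were followed through N2A neuroblastoma (NB) tumors, out of 35458 genes to which deposited transcripts could be matched. The genes (Th, Ddc, Dbh, Gch1, Dnajc12, Slc18a1, Slc18a2, Slc6a2 and Maoa) were listed by function, and the list was selected on read counts and TPM of these tumors that were already known, the treatment comparison included, so their differences between treatments are a description and not a test of the pathway. The tumors came from female A/J mice, bought at 4 weeks of age and injected under the skin with 1000000 Neuro-2a (N2A) cells, a mouse NB line that grows in this strain. Mice with a palpable mass received the adrenergic receptor antagonist SR59230A at 10 mg/kg (4 tumors, numbered 1 to 4) or vehicle (4 tumors, numbered 0 to 3), by intraperitoneal injection 2 times a day for 8 days. The vehicle was physiological solution. All tumors therefore derive from 1 line and carry host stroma, blood and immune cells beside the NB cells, and RNA was taken from the whole mass.

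Noradrenaline is made in steps. Tyrosine hydroxylase (Th) turns tyrosine into L-DOPA with the cofactor tetrahydrobiopterin (BH4), whose synthesis starts with GTP cyclohydrolase (Gch1), aromatic L-amino acid decarboxylase (Ddc) turns L-DOPA into dopamine, and dopamine β-hydroxylase (Dbh) turns dopamine into noradrenaline inside storage vesicles. The vesicular monoamine transporters (Slc18a1 and Slc18a2) load those vesicles, the noradrenaline transporter (Slc6a2) returns the released amine to the cell, and monoamine oxidase A (Maoa) breaks it down. NB arises from the sympathoadrenal lineage, and catecholamines and their metabolites are measured in patients as tumor markers, while the same amines are the natural ligands of the adrenergic receptors.

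The deposited transcript counts summed to 23484190 to 43675495 per SR59230A-treated tumor and to 28614914 to 44045575 per vehicle-treated tumor. The labelled tumor type was checked on 10 neuroblast markers, all with reads, whose summed level was 2126 to 3501 CPM (counts scaled to library size) with SR59230A and 3008 to 4489 CPM with vehicle. Skeletal muscle markers stood at 2131 and 186 summed CPM in SR59230A-treated tumors 1 and 2, at 26.5 and 9.58 in tumors 3 and 4, and at 6.47 to 8.58 in the vehicle-treated tumors. Olfactory receptor genes, 1406 loci taken as a measure of reads from genes usually silent outside the nose, summed to 1996, 1154, 3669 and 2174 CPM in SR59230A-treated tumors 1 to 4 and to 2233, 1164, 996 and 4196 CPM in vehicle-treated tumors 0 to 3. Values below are in that order of tumors.

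Levels were first compared between genes as TPM, a share of transcripts that corrects for their length. The vesicular transporter Slc18a2 had the highest median over the 8 tumors, 69.8 TPM (range 52.0 to 94.5), beside Th at 69.6 TPM (45.1 to 121), Gch1 at 59.7 TPM (43.9 to 93.7) and Dbh at 56.2 TPM (21.8 to 110). Ddc followed at 23.7 TPM (13.2 to 40.7). Dnajc12, a cochaperone that helps fold the aromatic amino acid hydroxylases, had a median of 4.40 TPM (3.13 to 20.6), Maoa 2.66 TPM (0.814 to 9.65), the second vesicular transporter Slc18a1 0.992 TPM (0.684 to 2.51) and Slc6a2 0.0989 TPM (0.0448 to 0.134). Of the neighbours in this order, Slc18a1 and Slc6a2 alone did not overlap between tumors, and the order of the first 4 genes was not fixed, Slc18a2 being above Th in 4 of 8 tumors and Gch1 above Dbh in 4 of 8. Synthesis and vesicle loading were thus represented by 5 well-detected genes, and reuptake by 1 gene with 5 to 17 reads per tumor.

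**Figure D1:**
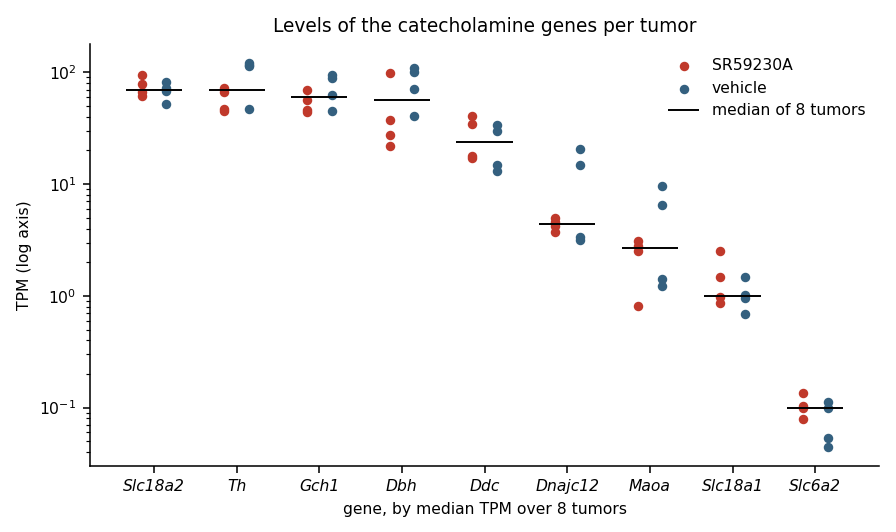
Level of each of the 9 genes (y axis, TPM, log scale) in each of 4 SR59230A-treated and 4 vehicle-treated tumors, ordered by the median over 8 tumors, which the short bars mark. Slc18a2, Th, Gch1 and Dbh share the top at medians of 56.2 to 69.8 TPM, and Slc6a2 lies apart at 0.0989 TPM.

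The start regions of the genes that carry most of this expression are shown because those of Th and Slc18a2 share a motif. Windows of 250 bases before to 50 bases after the start come from RefSeq (GRCm38.p6), which gave 7 windows for 6 of the 9 genes. Capitals mark TGACG, the core of the cAMP response element, or its reverse complement CGTCA.
Th, chr7:142899946-142900245, minus strand: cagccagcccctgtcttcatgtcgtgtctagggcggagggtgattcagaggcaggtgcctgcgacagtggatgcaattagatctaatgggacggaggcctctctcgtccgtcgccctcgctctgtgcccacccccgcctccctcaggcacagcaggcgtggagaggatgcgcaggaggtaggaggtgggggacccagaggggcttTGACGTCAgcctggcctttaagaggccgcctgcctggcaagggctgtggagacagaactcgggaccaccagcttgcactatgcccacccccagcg
Slc18a2, chr19:59260628-59260927, plus strand: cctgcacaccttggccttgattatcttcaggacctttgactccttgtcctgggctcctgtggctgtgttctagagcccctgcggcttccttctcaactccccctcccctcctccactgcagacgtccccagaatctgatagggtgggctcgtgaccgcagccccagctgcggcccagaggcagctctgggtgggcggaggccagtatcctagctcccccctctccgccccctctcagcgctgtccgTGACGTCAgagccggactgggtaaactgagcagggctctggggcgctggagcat
Gch1, chr14:47189364-47189663, minus strand: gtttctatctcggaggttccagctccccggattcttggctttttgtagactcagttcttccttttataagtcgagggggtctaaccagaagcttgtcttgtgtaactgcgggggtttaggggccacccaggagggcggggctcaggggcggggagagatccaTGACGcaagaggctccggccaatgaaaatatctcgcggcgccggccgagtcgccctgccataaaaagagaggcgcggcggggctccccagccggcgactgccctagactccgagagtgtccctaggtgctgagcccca
Dbh, chr2:27165257-27165556, plus strand: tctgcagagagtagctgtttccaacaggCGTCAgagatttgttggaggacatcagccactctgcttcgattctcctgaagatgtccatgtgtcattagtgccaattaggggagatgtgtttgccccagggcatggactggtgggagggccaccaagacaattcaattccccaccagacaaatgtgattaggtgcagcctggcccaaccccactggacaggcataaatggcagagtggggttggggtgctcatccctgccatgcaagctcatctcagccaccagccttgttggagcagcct
Ddc, chr11:11890359-11890658, minus strand: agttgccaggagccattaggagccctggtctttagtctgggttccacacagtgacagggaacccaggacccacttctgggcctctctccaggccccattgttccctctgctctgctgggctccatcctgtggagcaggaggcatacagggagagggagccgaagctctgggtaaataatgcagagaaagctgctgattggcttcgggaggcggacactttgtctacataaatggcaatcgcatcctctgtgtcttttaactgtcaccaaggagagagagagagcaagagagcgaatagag

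The whole palindrome TGACGTCA is the cAMP response element bound by CREB, and 1.79% of 32851 RefSeq windows of this length hold it. Its first base lay 45 bases before the start of Th. In Slc18a2 its first base lay 4 bases before the start, so the palindrome runs across the start. Distances below are also to the first base of a match. The core alone, searched on both strands and contained in the palindrome, lay 88 bases before the start in Gch1, 222 bases before in Dbh on the opposite strand and 209 bases before in Maoa, and 20.8% of windows hold it. CCAAT was found 70 bases before the start in Gch1, 150 bases before in Dbh and 55 bases before in Ddc on the opposite strand (37.4% of windows). GGGCGG was found in Gch1, Slc18a2, Th and Maoa (35.7% of windows). These are matches of letters and say nothing of binding in the tumors.

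Most members were read from 1 coding transcript. Th-201 took 99.8% to 100% of the Th reads in every tumor and Dbh-201 an equal range of the Dbh reads. Of the Ddc reads, 67.5% to 90.5% went to the coding transcript Ddc-202, while Ddc-201 had reads in vehicle-treated tumor 3 alone. Non-coding Ddc models took 9.51% to 30.7% of its reads, so its level rests less fully on coding RNA than that of Th or Dbh. The retained-intron model of Gch1 took 1.28% to 7.19% of the reads of that gene, with the highest share in SR59230A-treated tumor 3. For the low gene Slc18a1 the non-coding share ran from 0% to 40.0%.

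Between treatments, Th, Dbh, Gch1, Dnajc12 and Maoa had lower mean CPM with SR59230A than with vehicle. Slc18a2, Ddc, Slc18a1 and Slc6a2 did not. No gene among 15207 was called by edgeR's quasi-likelihood test with a threshold of 0.05 on the adjusted p and of 0.5 on the size of the log2 fold change (0%), so none of the 9 was, and the adjusted p was 0.996 for each of them. Fold changes are SR59230A over vehicle on the log2 scale with their standard errors (SE). All 9 genes passed the filter on low counts. Their median log2 fold change was -0.42, beside -0.0017 over all genes tested. Of the 9, 5 were below 0 (50.4% of all genes), 4 were at -0.5 or lower (4.95%) and 2, Th and Gch1, had an unadjusted p under 0.05 (4.64% of all genes in either direction, 2.42% lower). In 1 gene, Gch1, all SR59230A-treated tumors lay below all vehicle-treated ones in CPM (1.29%, or 2.61% without overlap in either direction). As the treatment comparison was known when the genes were listed, nothing is read from these shares.

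Th (GRCm38, chr7:142892752-142931128, minus strand) encodes the rate-limiting enzyme of the pathway. It had 46.2, 68.1, 61.6 and 91.5 CPM in SR59230A-treated tumors and 157, 117, 118 and 73.6 CPM in vehicle-treated tumors. Of the SR59230A-treated tumors, 3 lay below the lowest vehicle-treated tumor. Tumor 4 was above vehicle-treated tumor 3, so in CPM the groups overlapped through that single pair. In TPM, SR59230A-treated tumors 2 and 4 (72.3 and 66.9) were both above vehicle-treated tumor 3 (47.1). The means were 66.9 ± 18.8 CPM with SR59230A and 116 ± 34.1 CPM with vehicle (SD, n = 4 each), a log2 fold change of -0.80 (SE 0.25, edgeR adjusted p = 0.996, unadjusted p = 0.0108). DESeq2 gave an adjusted p of 0.238. The tumor lowest in Th, SR59230A-treated tumor 1, was also lowest in summed neuroblast markers (2126 CPM) and highest in skeletal muscle markers (2131 CPM), and the tumor highest in Th, vehicle-treated tumor 0, was highest in neuroblast markers (4489 CPM). The part of these in the difference was not tested, and in bulk RNA fewer NB cells cannot be told apart from less Th RNA per cell.

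**Figure D2:**
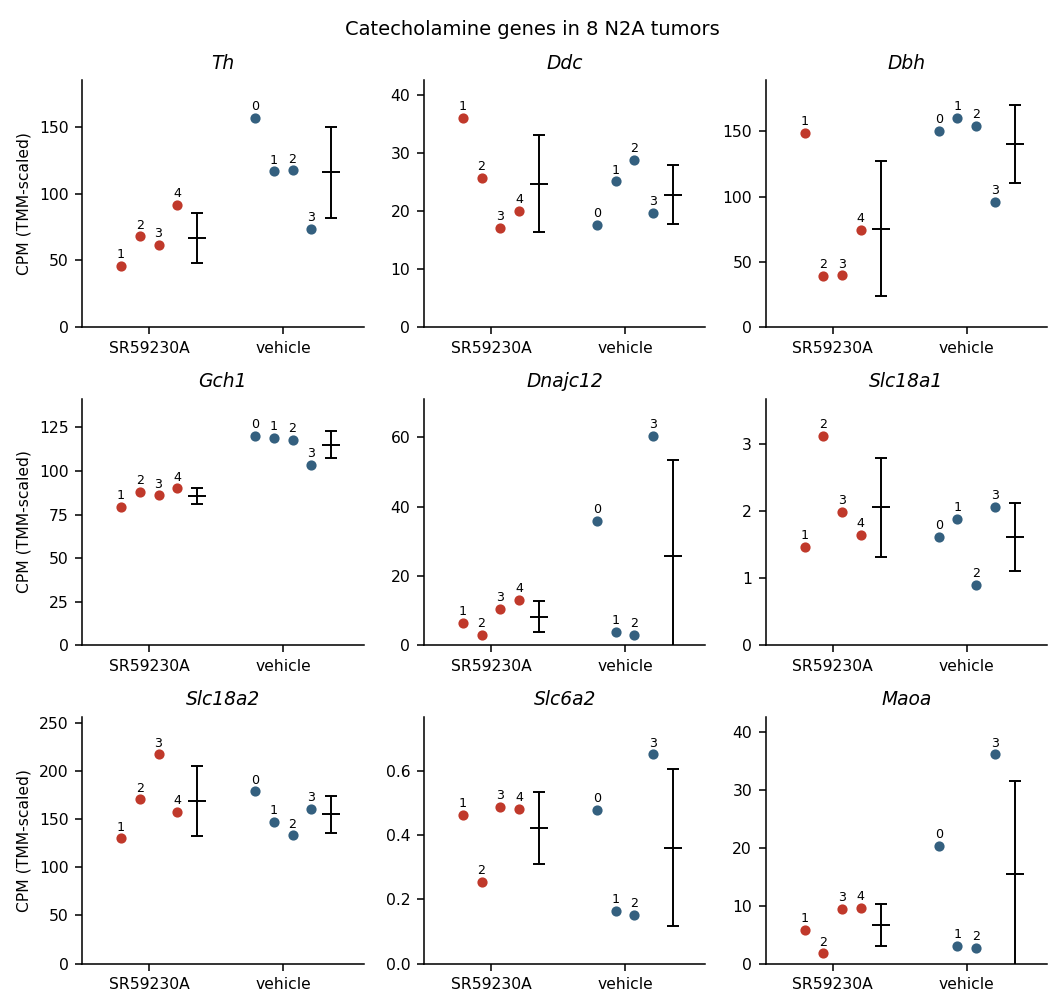
CPM of each gene (y axis, linear scale from 0, one panel a gene) in SR59230A-treated tumors on the left and vehicle-treated tumors on the right, 1 point a tumor, with the mean and SD of 4 tumors (SD bars that would pass below 0 end at the axis). Gch1 has no overlap between treatments, Th overlaps by 1 pair of tumors, and Dnajc12 and Maoa are each high in vehicle-treated tumors 0 and 3.

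Gch1 (chr14:47153895-47189413, minus strand) sets the entry into BH4 synthesis. In CPM it was the most evenly expressed member, the highest tumor exceeding the lowest by 1.51 times. In TPM it was not, at 43.9 to 93.7 against 52.0 to 94.5 for Slc18a2. Its CPM were 79.3, 88.0, 86.0 and 90.1 with SR59230A and 120, 119, 118 and 103 with vehicle. In CPM, every SR59230A-treated tumor was below every vehicle-treated tumor, with a gap between 90.1 and 103 CPM. In TPM the groups overlapped, at 57.1, 69.2, 43.9 and 46.0 with SR59230A and 62.3, 93.7, 88.7 and 45.4 with vehicle. By limma on log2(TPM + 1) the log2 fold change of Gch1 was -0.38 (SE 0.28, unadjusted p = 0.199). The means were 85.9 ± 4.67 CPM with SR59230A and 115 ± 7.86 CPM with vehicle (SD, n = 4 each), a log2 fold change of -0.42 (SE 0.09, edgeR adjusted p = 0.996, unadjusted p = 0.00114). DESeq2 gave an adjusted p of 0.0321 at a log2 fold change of -0.43, which is under the threshold on p but short of the required fold. By DESeq2 38 of 18395 genes (0.207%) had an adjusted p under 0.05 at any fold.

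Dbh (chr2:27165233-27183200, plus strand), which commits dopamine to noradrenaline, was spread widely among the SR59230A-treated tumors. It had 149, 39.4, 39.6 and 74.2 CPM with SR59230A and 150, 160, 154 and 96.0 CPM with vehicle. SR59230A-treated tumor 1 sat at the level of the vehicle-treated tumors and the other 3 lay below all of them. The means were 75.4 ± 51.5 CPM with SR59230A and 140 ± 29.8 CPM with vehicle (SD, n = 4 each), a log2 fold change of -0.89 (SE 0.41, edgeR adjusted p = 0.996). Without SR59230A-treated tumor 1 the log2 fold change was -1.46, still not called. Tumor 1 thus had the lowest Th and the highest Dbh of its group, and its ratio of Dbh to Th in TPM was 2.17, against 0.383, 0.468 and 0.559 in SR59230A-treated tumors 2 to 4 and 0.621, 0.905, 0.873 and 0.871 in vehicle-treated tumors 0 to 3. With all tumors kept, the SR59230A range of the ratio, 0.383 to 2.17, enclosed the vehicle range of 0.621 to 0.905.

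Ddc (chr11:11814101-11898144, minus strand), which acts between Th and Dbh, was not lower on average. Its CPM were 36.1, 25.7, 17.1 and 20.0 with SR59230A and 17.7, 25.1, 28.9 and 19.8 with vehicle. The groups overlapped over nearly their whole range, with means of 24.7 ± 8.40 CPM with SR59230A and 22.9 ± 5.10 CPM with vehicle (SD, n = 4 each) and a log2 fold change of 0.11 (SE 0.24). The sign rested on SR59230A-treated tumor 1, without which it was -0.12. The ratio of Th to Ddc in TPM was 1.11, 2.10, 2.75 and 3.76 with SR59230A and 8.69, 4.09, 3.39 and 3.18 with vehicle, so tumor 4 of the SR59230A group fell within the vehicle range.

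Slc18a2 (chr19:59260896-59296012, plus strand) fills the vesicles with amine and was as abundant as Th. It had 130, 171, 217 and 158 CPM with SR59230A and 179, 147, 133 and 161 CPM with vehicle. The lowest and the highest value both belonged to SR59230A-treated tumors. The means were 169 ± 36.4 CPM with SR59230A and 155 ± 19.5 CPM with vehicle (SD, n = 4 each), a log2 fold change of 0.12 (SE 0.16), and without SR59230A-treated tumor 3 it was -0.03. Slc18a1, the form known from chromaffin cells, had 1.47, 3.12, 2.00 and 1.65 CPM with SR59230A and 1.62, 1.89, 0.906 and 2.07 CPM with vehicle, a log2 fold change of 0.35 (SE 0.35). In TPM, Slc18a2 exceeded Slc18a1 by 37.7 to 81.5 times with SR59230A and by 54.4 to 99.2 times with vehicle, so 1 vesicular transporter predominated in each of the 8 tumors.

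Slc6a2 carries noradrenaline back into sympathetic neurons and was barely detected, with 17, 12, 10 and 14 reads in SR59230A-treated tumors and 13, 8, 5 and 17 reads in vehicle-treated tumors. At this depth no difference was detectable (log2 fold change 0.25, SE 0.54), and without vehicle-treated tumor 1 or 2 the value was -0.02 or -0.01.

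Dnajc12 (chr10:63382443-63410576, plus strand) and Maoa (chrX:16619698-16687818, plus strand), a cochaperone of amine synthesis and an enzyme of amine breakdown, varied widely between tumors of the same treatment. Dnajc12 had 6.36, 2.91, 10.5 and 13.2 CPM with SR59230A and 35.8, 3.96, 2.90 and 60.3 CPM with vehicle. Maoa had 5.84, 1.76, 9.39 and 9.61 CPM with SR59230A and 20.4, 3.03, 2.69 and 36.1 CPM with vehicle. Vehicle-treated tumors 0 and 3 were high for both genes, and vehicle-treated tumors 1 and 2 and SR59230A-treated tumor 2 were low for both. The highest tumor exceeded the lowest by 20.8 times for Dnajc12 and 20.5 times for Maoa. The means were 8.22 ± 4.51 CPM with SR59230A and 25.7 ± 27.6 CPM with vehicle for Dnajc12 and 6.65 ± 3.69 CPM with SR59230A and 15.5 ± 16.0 CPM with vehicle for Maoa (SD, n = 4 each). The log2 fold changes were -1.65 (SE 0.90) and -1.23 (SE 0.84). Among the members these are the most negative values, but their spread was as wide as the difference. Without vehicle-treated tumor 3 they were -0.79 for Dnajc12 and -0.39 for Maoa, and without vehicle-treated tumors 0 and 3 and SR59230A-treated tumor 4 together, the libraries with satellite-like reads in earlier results, they were 0.95 and 0.99.

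The tumors high in Dnajc12 and Maoa were also high in olfactory receptor reads. Vehicle-treated tumor 3, the highest for both genes, had the highest olfactory receptor sum (4196 CPM), and vehicle-treated tumors 1 and 2 and SR59230A-treated tumor 2, the lowest for both, had the lowest sums (996 to 1164 CPM). SR59230A-treated tumor 3 departed from this order, with 3669 CPM of olfactory receptors but 9.39 CPM of Maoa, against 20.4 CPM in vehicle-treated tumor 0 at an olfactory receptor sum of 2233 CPM. Slc6a2 followed the same order of libraries, with 0.464, 0.255, 0.487 and 0.481 CPM in SR59230A-treated tumors and 0.479, 0.164, 0.151 and 0.651 CPM in vehicle-treated tumors. Its highest value was in the tumor with the highest olfactory receptor sum and its 3 lowest values in the 3 tumors with the lowest sums, and whether its few reads exceed such background was not tested. The part of this library measure in the difference between treatments was not tested.

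**Figure D3:**
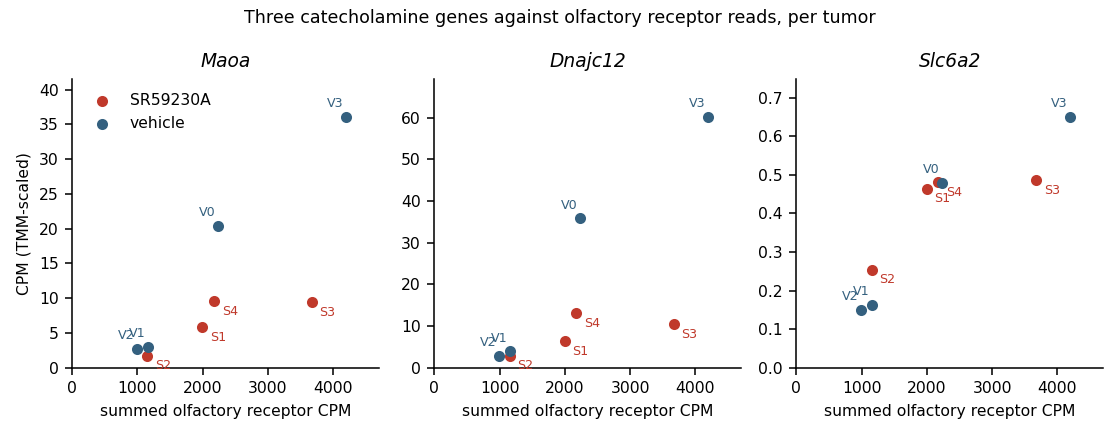
CPM of Maoa, Dnajc12 and Slc6a2 (y axes) against the summed CPM of olfactory receptor genes (x axes) in each tumor, S1 to S4 for SR59230A and V0 to V3 for vehicle. The lowest Maoa and Dnajc12 values sit at olfactory receptor sums of 996 to 1164 CPM and the highest at 4196 CPM, while S3 lies low for its sum of 3669 CPM.

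Patterns over the 8 tumors were compared as the root mean square difference of log2 CPM centred on each gene's mean. In this measure 0 means the same profile. It also depends on how much each gene varies, so genes that vary little come out near each other whatever their order of tumors. Of the pairs of members, Dnajc12 and Maoa were closest (0.27), ahead of Gch1 and Slc18a2 (0.34) and of Th and Gch1 (0.35). The nearness of Gch1 and Slc18a2 does not mean a shared order of tumors. In SR59230A-treated tumor 3, for example, their centred values were -0.21 and 0.44. Th and Dbh, neighbours in the pathway, differed by 0.73. Among 9488 genes with a mean of at least 10 CPM, the profiles nearest to Th were those of Bdkrb2 (0.11), a bradykinin receptor gene, Atp2b3 (0.17), a plasma membrane calcium pump gene, and Plce1 (0.20), a phospholipase gene. Those nearest to Gch1 were Eef1a2 (0.07), a translation elongation factor gene, Ccdc40 (0.07), a gene needed for motile cilia, and Ndufv3 (0.08), a respiratory complex I gene. Dbh had no profile as near, the first being Pdlim3 (0.43), Syt17 (0.43) and Pja1 (0.47). All of these profiles share the same libraries, and treatment is part of what they have in common.

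The members held their sign unevenly over the other ways of processing the data. The log2 fold changes of Th (-0.99 to -0.60), Dbh (-1.46 to -0.68) and Gch1 (-0.48 to -0.38) were below 0 in every alternative that gave them, and that of Slc18a1 above 0 (0.07 to 0.66). Those of Ddc (-0.30 to 0.27), Slc18a2 (-0.03 to 0.32), Slc6a2 (-0.02 to 1.32), Dnajc12 (-2.02 to 0.95) and Maoa (-1.58 to 0.99) took both signs.

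**Figure D4:**
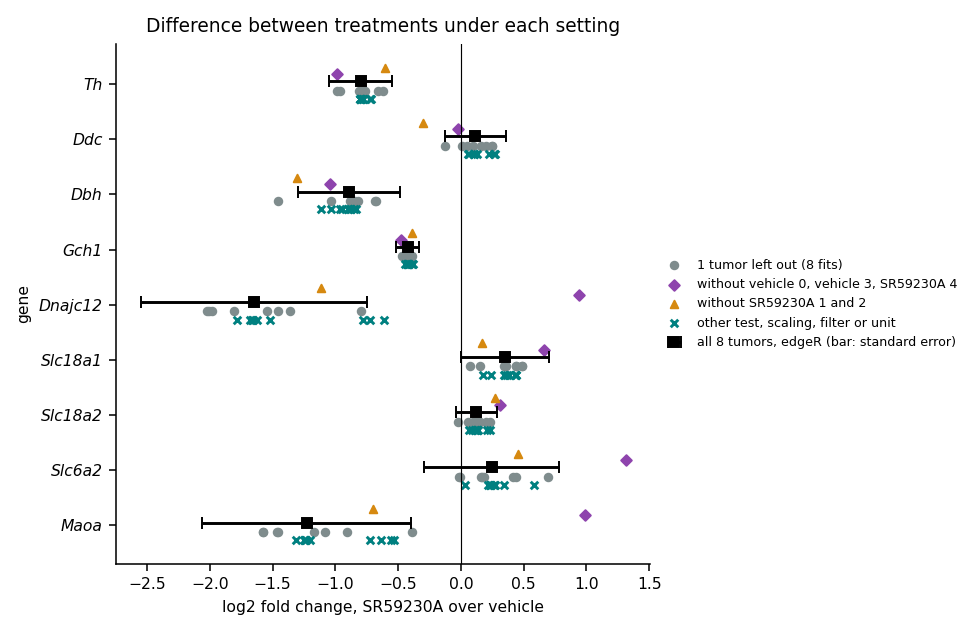
Log2 fold change of each gene, SR59230A over vehicle (x axis), in the edgeR fit over 8 tumors (squares, with bars of 1 SE) and in each alternative that gave a value. Th, Dbh and Gch1 stay left of 0, with Gch1 the narrowest at -0.48 to -0.38, while Dnajc12 and Maoa span both sides.

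Other genes of amine metabolism were described by lists, again chosen with earlier results known. Of 58 listed genes 45 could be tested, none was called by edgeR or DESeq2 in either direction, 24 were below 0 and 21 above, and their median log2 fold change was -0.03. The other enzymes of BH4 synthesis and recycling lay on both sides of 0, 4 of 9 being below it, with a median of 0.05 and a range of -0.12 to 0.28. Their most abundant members were Akr1b3, an aldo-keto reductase (0.09, SE 0.25), Pcbd1, which regenerates the cofactor (0.06, SE 0.12), and Gchfr, the feedback regulator of Gch1 (0.28, SE 0.20). Gchfr averaged 17.7 ± 4.09 CPM with SR59230A and 14.5 ± 2.98 CPM with vehicle (SD, n = 4 each), so its difference was within the spread.

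Genes that serve Dbh and Ddc had small fold changes, none of them called. Of 6 genes for the copper and ascorbate that Dbh needs, 5 were tested, with a median of -0.03, among them the copper chaperone Atox1 (0.11, SE 0.28), the vesicle electron carrier Cyb561 (-0.22, SE 0.17) and the copper importer Slc31a1 (-0.03, SE 0.09). Of the genes that supply Ddc with vitamin B6, Pdxk and Alpl had log2 fold changes of 0.06 (SE 0.17) and 0.13 (SE 0.48). Of 11 genes for amine breakdown and other uptake, 7 were tested with a median of 0.06, led in abundance by the aldehyde reductases Akr1a1 (0.07, SE 0.13) and Akr1b3 and by the aldehyde dehydrogenase Aldh9a1 (0.06, SE 0.15). Maob, the other monoamine oxidase, was named after its values were seen because it had at most 9 reads in any tumor and was not tested.

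The noradrenergic transcription factors and the granule genes were taken as genes of the NB cells, although RNA of the whole mass does not show which cells made each. Of 9 such factors 8 were tested, 6 of them below 0, with a median of -0.16. The most abundant were Phox2a (-0.27, SE 0.14) and Hand2 (-0.21, SE 0.11), which specify sympathetic neurons. Phox2a averaged 56.8 ± 4.58 CPM with SR59230A and 68.4 ± 13.0 CPM with vehicle, and Hand2 99.0 ± 6.80 CPM with SR59230A and 114 ± 14.1 CPM with vehicle (SD, n = 4 each). Of 10 genes of granule storage 9 were tested, with a median of 0.05, the most abundant being the granins Chgb (-0.46, SE 0.24) and Scg2 (-0.10, SE 0.22) and the granule peptide precursor Vgf (0.22, SE 0.13). Chgb, a matrix protein of amine granules, averaged 2110 ± 551 CPM with SR59230A and 2895 ± 609 CPM with vehicle (SD, n = 4 each) and makes up most of the summed neuroblast markers given above.

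Of 11 enzymes and carriers of other transmitters 5 were tested, all below 0, with a median of -0.46 that was -0.27 without vehicle-treated tumor 0 and -0.16 with no filter on low counts, where all 11 enter. They were acetylcholinesterase Ache (-0.51, SE 0.29), the tryptophan hydroxylases Tph1 (-0.46, SE 0.28) and Tph2 (-0.17, SE 0.21), and, named after their values were seen, Hdc (-0.09, SE 0.46) and Chat (-0.50, SE 0.29), the enzymes that make histamine and acetylcholine. Pnmt, which turns noradrenaline into adrenaline, and the dopamine transporter Slc6a3 had at most 2 and 4 reads in any tumor and were likewise chosen after their values were seen. The transcripts detected therefore ran as far as noradrenaline in the pathway, with the adrenaline enzyme at or near 0 in the 8 tumors.

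**Figure D5:**
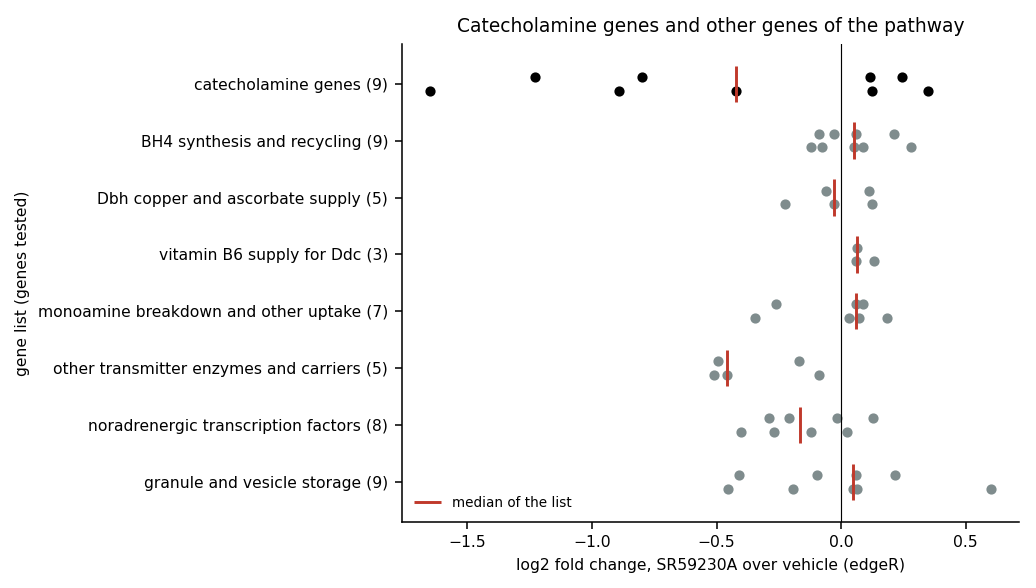
Log2 fold change, SR59230A over vehicle (x axis), of the 9 catecholamine genes and of each tested gene of 7 lists (y axis), 1 point a gene, with the median of each list as a bar and a line at 0. The points furthest left are Dnajc12 (-1.65) and Maoa (-1.23), the median of the catecholamine genes is -0.42 and that of the other transmitter genes -0.46, BH4 synthesis and recycling lies about 0 (median 0.05), and no point passed the test.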

How the data were processed

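RNA from whole tumors was sequenced from stranded total RNA libraries, and the authors quantified it with Salmon, and deposited estimated counts and TPM per transcript for each tumor. The authors also deposited DESeq2 normalized counts per symbol (a signal scaled between libraries, 15035 symbols, 3 of the 9 genes), used only in 1 alternative. The study's methods name GRCm38 and the submitters' notes GRCm39. Identifiers matched GENCODE annotation of GRCm38 for 99.1% of 116747 transcripts.

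Estimated counts were summed per gene, rounded, filtered on low counts, scaled by TMM and compared with edgeR 4.0.16 (R 4.3.3) by its quasi-likelihood test with Benjamini-Hochberg adjustment over 15207 genes. CPM are TMM-scaled and TPM are summed over transcripts. The study's thresholds were used. Treatments were compared on CPM, and on TPM only in 2 alternatives, as the median TPM of tested genes differed between libraries. The alternatives (DESeq2 1.42.0, limma 3.58.1 on TPM with pseudocounts of 1 and 0.1, other scaling, filters, transcript sets, lengths and tumors) are given below. The fits were tested on simulated data.

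The 9 genes and all lists were chosen with earlier results of these data known. All 9 were named, with up to 3 genes per list by mean TPM and the 3 nearest profiles for Th, Dbh and Gch1. Some genes of these lists are not reported here. Replicates are separate tumors, which the labels do not tie to litters or days.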

Additional observations from a re-analysis of the deposited data

Results flagged for a closer look

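In 18 groups of 4 tumors (9 genes, 2 treatments), 3 held a tumor far from the other 3, where chance gives about 1 group in 20. Dbh was low in vehicle-treated tumor 3, at 96.0 CPM with the others at 150 to 160. Gch1 was low in the same tumor, at 103 CPM with the others at 118 to 120. Slc6a2 was low in SR59230A-treated tumor 2, at 0.255 CPM, which rests on 12 reads, in 1 of the 3 libraries with the lowest olfactory receptor sums (1154 CPM). The gap to the nearest tumor took 0.848, 0.882 and 0.901 of the group's range, each past Dixon's 95% limit for 4 values. Vehicle-treated tumor 3 also had the lowest Th of its group (73.6 CPM) and the highest Dnajc12 and Maoa (60.3 and 36.1 CPM) and olfactory receptor reads (4196 CPM).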

How the results depend on the processing

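Over 20 alternatives, none of the 9 genes and none of the other pathway genes was called. The median log2 fold change of the members, -0.42, ran from -0.45 to -0.39 without 1 tumor at a time. It was -0.72 in the deposited normalized counts, which hold 3 of the 9 genes, and 0.32 when the 3 libraries holding satellite-like reads were left out, which keeps SR59230A-treated tumors 1 to 3 and vehicle-treated tumors 1 and 2. In that last fit Ddc (-0.024), Dnajc12 (0.95) and Maoa (0.99) changed sign. Ddc was -0.30 without the 2 libraries with skeletal muscle reads. Without 1 tumor, Ddc ran from -0.12 to 0.25, Slc18a2 from -0.026 to 0.23 and Slc6a2 from -0.017 to 0.69, through -0.0086. The cause was not tested. The median of the other transmitter genes (-0.46) was -0.17 by DESeq2, -0.16 without a filter, -0.27 on log2(TPM + 1), -0.21 in the deposited normalized counts and -0.48 to -0.27 without 1 tumor. The number of neighbours in the order of levels that did not overlap was 1, and 1 to 2 without 1 tumor.

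The labels share the numbers 1 to 3 between treatments. Deviations of same-numbered tumors correlated at -0.09, 0.60 and 0.60, and SR59230A-treated tumor 1 correlated best with vehicle-treated tumor 3 (0.10), so the numbers were not taken as pairs. With the number as a replicate block, over 6 tumors, 0 genes of the 9 were called, and Th was at -0.79, Dbh at -1.12, Gch1 at -0.42, Dnajc12 at -0.61, Maoa at -0.55, Ddc at 0.06, Slc18a2 at 0.21, Slc18a1 at 0.44 and Slc6a2 at 0.58, with a list median under this block of -0.42. The fit of the same 6 tumors without the block was chosen after seeing the data and gave a list median of -0.42, with Dnajc12 at -1.78 and Maoa at -1.31. Depth limits Slc6a2 and Slc18a1 most, and 4 tumors a treatment limit every value.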
